A study of Mus musculus with 4 samples.

Results

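Hox genes encode homeodomain transcription factors that lie side by side in 4 clusters of the mouse genome, HoxA to HoxD. Named genes were taken as members where the symbol was Hox, a cluster letter from a to d and a number, and each gene was read from its probe set with the highest mean. This gave 37 members of 19938 named genes. Hoxb8 was read only by a probe set that it shares with Hoxb7 and was not counted as a member.

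The values came from NIH3T3, an established line of mouse fibroblasts, as 1 stable clone (p19) that carried the plasmids pBI-EGFP-FLAG-mCtcfl and pTA-N in all 4 samples. Ctcfl encodes CTCFL (BORIS), a germ-line paralog of the insulator protein CTCF, and the vector places it under Tet-Off control, where doxycycline represses it. Doxycycline at 2 µg/ml was in the medium of the 2 control samples. For the 2 Ctcfl samples it was withdrawn for 48 h, so that loss of the drug and induction of Ctcfl cannot be told apart. Each sample was 1 Affymetrix array, with log2 RMA values (a background-corrected, quantile-normalised summary of each probe set). No label says that replicates came from separate cultures. The p-values below therefore measure only the spread between these arrays, and the number of arrays limits the precision.

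As background, the number in a Hox gene's name gives its paralog group, which follows its order along the cluster. Low numbers lie at the 3′ end and are active early and toward the head of the embryo, and high numbers lie at the 5′ end and act toward the tail and the tips of the limbs. Adult fibroblasts are known to keep part of the Hox pattern of the body site they came from. Polycomb proteins hold silent Hox genes off, Trithorax proteins keep active ones on, and CTCF binds between Hox genes at borders between these states, which makes the clusters a natural place to look when a CTCF paralog is expressed.

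The clusters also hold miRNA genes. The miR-10 and miR-196 families are shown because their members lie in different clusters, and miR-615 because its gene lies inside Hoxc5 and was measured above the background level defined below. The mature sequences are from RefSeq (GRCm38.p6), with the seed, bases 2 to 8, in capitals.
miR-10a-5p, HoxB cluster, chr11:96317186-96317208, plus strand: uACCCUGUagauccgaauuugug
miR-10b-5p, HoxD cluster, chr2:74726074-74726096, plus strand: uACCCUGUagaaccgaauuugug
miR-196a-5p, from Mir196a-1 in HoxB (chr11:96265187-96265208, plus strand) and Mir196a-2 in HoxC (chr15:102973365-102973386, plus strand): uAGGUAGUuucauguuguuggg
miR-196b-5p, HoxA cluster, chr6:52230129-52230150, minus strand: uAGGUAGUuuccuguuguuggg
miR-615-3p, HoxC cluster, chr15:103014969-103014990, plus strand: uCCGAGCCugggucucccucuu
Both miR-10 forms share one seed, all miR-196 forms share another, and miR-615-3p has its own.

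CTCFL has zinc fingers very like those of CTCF, so the Hox promoters were searched on both strands for AGGGGGC, the core of the CTCF motif. RefSeq promoters (250 bases before to 50 after a start, GRCm38.p6) were at hand for 21 of the 37 genes, as 23 windows. The letters were found in 2 of these windows (8.70%), against 10.6% of all 32851 promoters. This spelling was settled on after several forms of the motif had been counted in these windows. The stretches are shown because they belong to the 2 genes of the 21 that hold the core, with the core or its reverse complement in capitals and its first base counted from the start.
Hoxa10, chr6:52240925-52240963, minus strand, core from base -93: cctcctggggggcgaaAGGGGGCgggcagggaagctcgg
Hoxd13, chr2:74668040-74668078, plus strand, core from base -169: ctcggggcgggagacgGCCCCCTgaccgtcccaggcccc
Hoxd13, chr2:74668058-74668096, plus strand, core from base -151: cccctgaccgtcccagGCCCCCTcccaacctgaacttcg
The printed stretches of Hoxd13 lie in 1 window and overlap. Such a match is a description of the sequence, and binding was not measured in this series.

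Array medians over all probe sets were 5.20 to 5.24. The quantile normalisation in RMA makes them alike, so they do not show the depth of signal. Any pair of arrays correlated at 0.995 to 0.997 across genes. Ctcfl itself read 7.77 and 7.71 on the control arrays and 10.37 and 10.35 on the Ctcfl arrays, so the labels were borne out. All 10 fibroblast markers on a fixed list were well measured, at means from 7.71 to 12.12. As no detection calls were used, 1178 olfactory and vomeronasal receptor genes, which serve smell and are not known to be used by fibroblasts, stood in for silent genes. Their 95th percentile was 4.57 in the control group and 4.60 in the Ctcfl group, and a gene above it in both groups is called above the receptor level below. By this measure Ctcfl was not silent on the control arrays. Probe sets differ in how strongly they bind, so a value places a gene against this reference and does not rank one gene against another.

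Each Hox gene was placed against this reference, and the counts by paralog group are a description with no test. All 11 members of paralog groups 1 to 4 and all 10 of groups 5 to 8 lay above the receptor level, and 8 of the 16 in groups 9 to 13 did. The last group was mixed, since Hoxb9, Hoxb13, Hoxd11 and Hoxd13 passed and Hoxd10 and Hoxd12 did not. Together that is 29 of 37, or 78.4%, beside 66.1% of all named genes and 4.24% of the receptor genes. With the median of all named genes (5.51 in control, 5.53 in Ctcfl) as the bar, 5 of 11, 7 of 10 and 1 of 16 members lay above it, 13 in all. The count depends on the bar, since 17 members lay above the 99th percentile of the receptor genes. Background that depends on the bases of a probe was not measured, because probe sequences were not used here. The receptor level is a low bar for a homeobox gene: Gsx1, a brain homeobox gene outside the clusters, read 5.13 to 5.58. Of 6 measured Cdx and ParaHox genes, which also lie outside the clusters, 4 lay above the receptor level. One of them, Cdx1, read 6.30 to 6.59 and so lay above the median of all named genes too. Whether these genes are transcribed in this line was not tested. In cultured cells a lower value can mean fewer cells with the transcript or less of it per cell, which cannot be told apart.

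**Figure D1:**
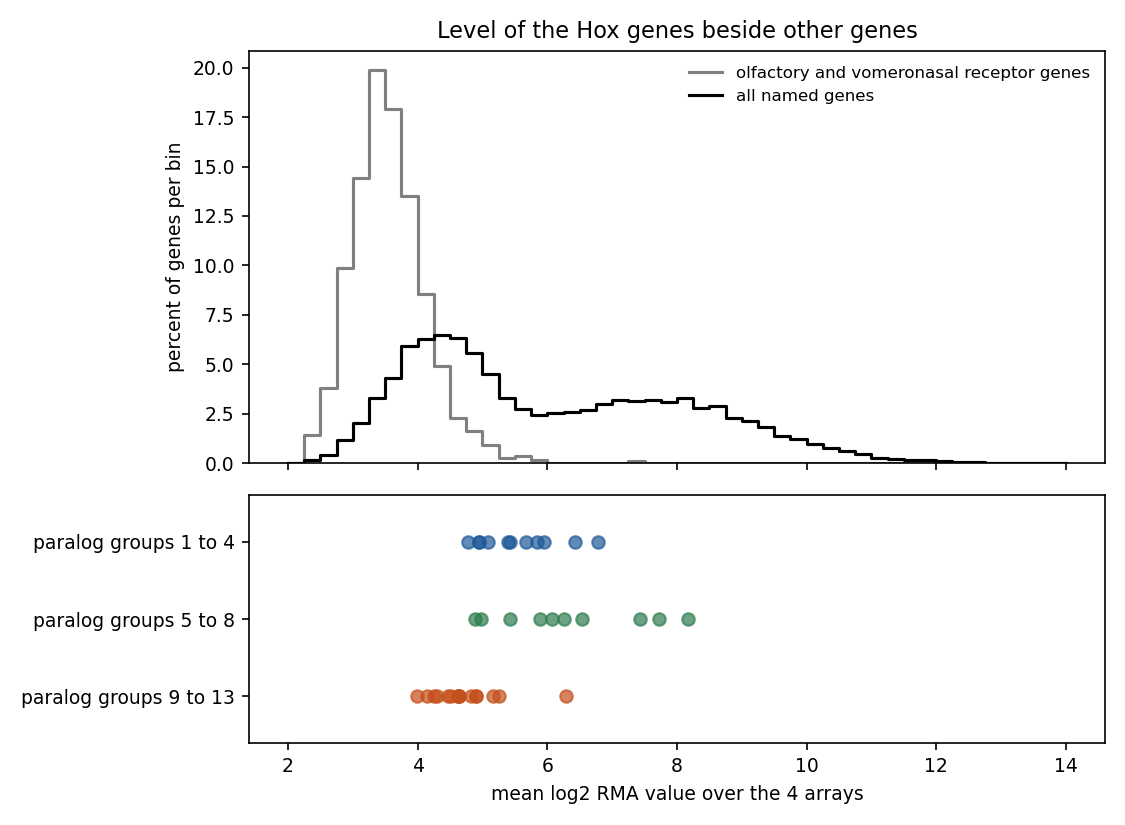
Mean log2 RMA value over the 4 arrays. The upper panel gives the percent of receptor genes (grey) and of all named genes (black) per bin, and each dot of the lower panel is 1 Hox gene, by paralog group. Members of groups 9 to 13 sit at or below 5.25, apart from Hoxd9 at 6.29.

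In the HoxA cluster (GRCm38.p6 chr6:52162417-52260880 over the measured genes) the run from Hoxa4 to Hoxa7, together with Hoxa2, lay above the median of all genes in both groups. Hoxa4 read 6.91 and 6.92 in control and 6.65 on both Ctcfl arrays. Hoxa5, a regulator of lung and axial skeleton development, read 7.62 and 7.70 in control and 7.91 and 7.67 in Ctcfl. Hoxa6 read 6.49 and 6.55, then 6.70 and 6.38. The groups overlapped for Hoxa5 and Hoxa6, with Ctcfl replicate 1 the highest array for both. Hoxa7 read 7.30 and 7.52 in control and 7.48 and 7.45 in Ctcfl, and here the control arrays lay on either side of both Ctcfl arrays. Toward the 3′ end, Hoxa2, which patterns the second pharyngeal arch, read 5.66 and 5.85 in control and 5.52 and 5.65 in Ctcfl, just without overlap. Hoxa3, needed for thymus and parathyroid, read 5.14 and 4.91, then 5.10 and 5.17. Past Hoxa7 no member of HoxA lay above that median. Hoxa9, known from blood stem cells and leukaemia, read 4.52 and 4.45 in control and 4.91 and 4.64 in Ctcfl. Both Ctcfl arrays were the higher ones, but the control mean lay under the receptor level. Hoxa10, which acts in the uterus, read 4.81 and 5.05, then 4.79 and 4.98. Hoxa13, a gene of digits and genital tract, read 4.64 and 4.57, then 4.62 and 4.70, so both were above the receptor level, Hoxa13 barely, with overlapping groups. Hoxa11 read 4.47 to 4.55 over the 4 arrays, not above it.

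HoxB (chr11:96194316-96368254) had all 9 measured members above the receptor level, but 2 above the median of all genes. These were Hoxb3 and Hoxb6. Hoxb3 read 6.32 and 6.55 in control and 6.46 and 6.37 in Ctcfl, inside the control range. Hoxb6 read 6.39 and 6.13 in control and 6.21 and 6.30 in Ctcfl, again inside it. Hoxb1, an early hindbrain gene, read 5.17 and 5.60, then 5.47 and 5.36. Its control replicates differed by more than any other pair of control arrays among the members. Hoxb7 read 5.42 and 5.36 in control and 5.30 and 5.62 in Ctcfl. Hoxb9 read 5.15 and 5.37, then 5.22 and 5.26. In both genes one group enclosed the other. Hoxb2 read 4.88 and 4.91 in control and 4.94 and 5.03 in Ctcfl, so the groups were apart by no more than the control replicates were. Hoxb4 read 4.89 and 4.60, then 4.89 and 4.74. Hoxb5 read 4.86 and 4.94 in control and 5.16 and 4.94 in Ctcfl, with Ctcfl replicate 1 alone above the rest. Hoxb13, a prostate and tail gene that lies apart from the rest of the cluster, read 4.66 and 4.91, then 4.99 and 4.70. The probe set shared by Hoxb8 and Hoxb7 read 4.23 and 4.35 in control and 4.69 and 4.42 in Ctcfl. It was outside the fit and cannot be assigned to either gene.

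HoxC (chr15:102921131-103036856) had 5 of 9 members above the receptor level, all from its 3′ part. Hoxc4 read 5.46 and 5.39 in control and 5.56 and 5.31 in Ctcfl. Hoxc5 read 5.89 and 5.64 in control and 5.92 and 6.09 in Ctcfl, just without overlap. Hoxc6 read 6.22 and 6.14 in control and 6.19 and 5.71 in Ctcfl, where only Ctcfl replicate 2 was low. Hoxc5 and Hoxc6 lay above the median of all genes. Hoxc8, which patterns the thorax, read 4.74 on both control arrays and 5.17 and 4.91 in Ctcfl. Hoxc9 read 4.60 and 4.56 in control and 4.79 and 4.52 in Ctcfl. Its means, 4.58 and 4.655, were barely above the receptor level. The other 4 measured members, Hoxc10 to Hoxc13, were not above the receptor level in both groups. Hoxc12 read 4.66 and 4.78 in control and 4.48 and 4.55 in Ctcfl, so that it was above the level in control alone. Hoxc10, Hoxc11 and Hoxc13 had means from 3.98 to 4.25, below it in both groups.

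HoxD (chr2:74668225-74765142) had 4 members above the median of all genes, Hoxd3, Hoxd4, Hoxd8 and Hoxd9. Hoxd8 read 8.28 and 8.27 in control and 7.97 and 8.18 in Ctcfl, so both Ctcfl arrays lay below both control arrays. Hoxd9, the single member of groups 9 to 13 above the median of all genes, read 6.35 and 6.23, then 6.31 and 6.28. Toward the 3′ end Hoxd3 read 5.93 and 5.91 in control and 6.06 and 5.92 in Ctcfl. Hoxd4 read 5.79 and 5.93, then 5.87 and 5.79. Both were also above that median, with overlapping groups. Hoxd1 read 4.87 and 5.14 in control and 5.10 and 4.66 in Ctcfl, with a wide spread in either group. At the 5′ end, Hoxd11, a gene of forearm and kidney, read 5.17 and 5.21, then 5.09 and 5.20. Hoxd13, mutated in inherited fusion of digits, read 5.0 and 4.86 in control and 4.82 and 4.95 in Ctcfl. These were above the receptor level and below the median of all genes. Hoxd10 (means 4.37 and 4.24) and Hoxd12 (4.41 and 4.52) were not above the receptor level.

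**Figure D2:**
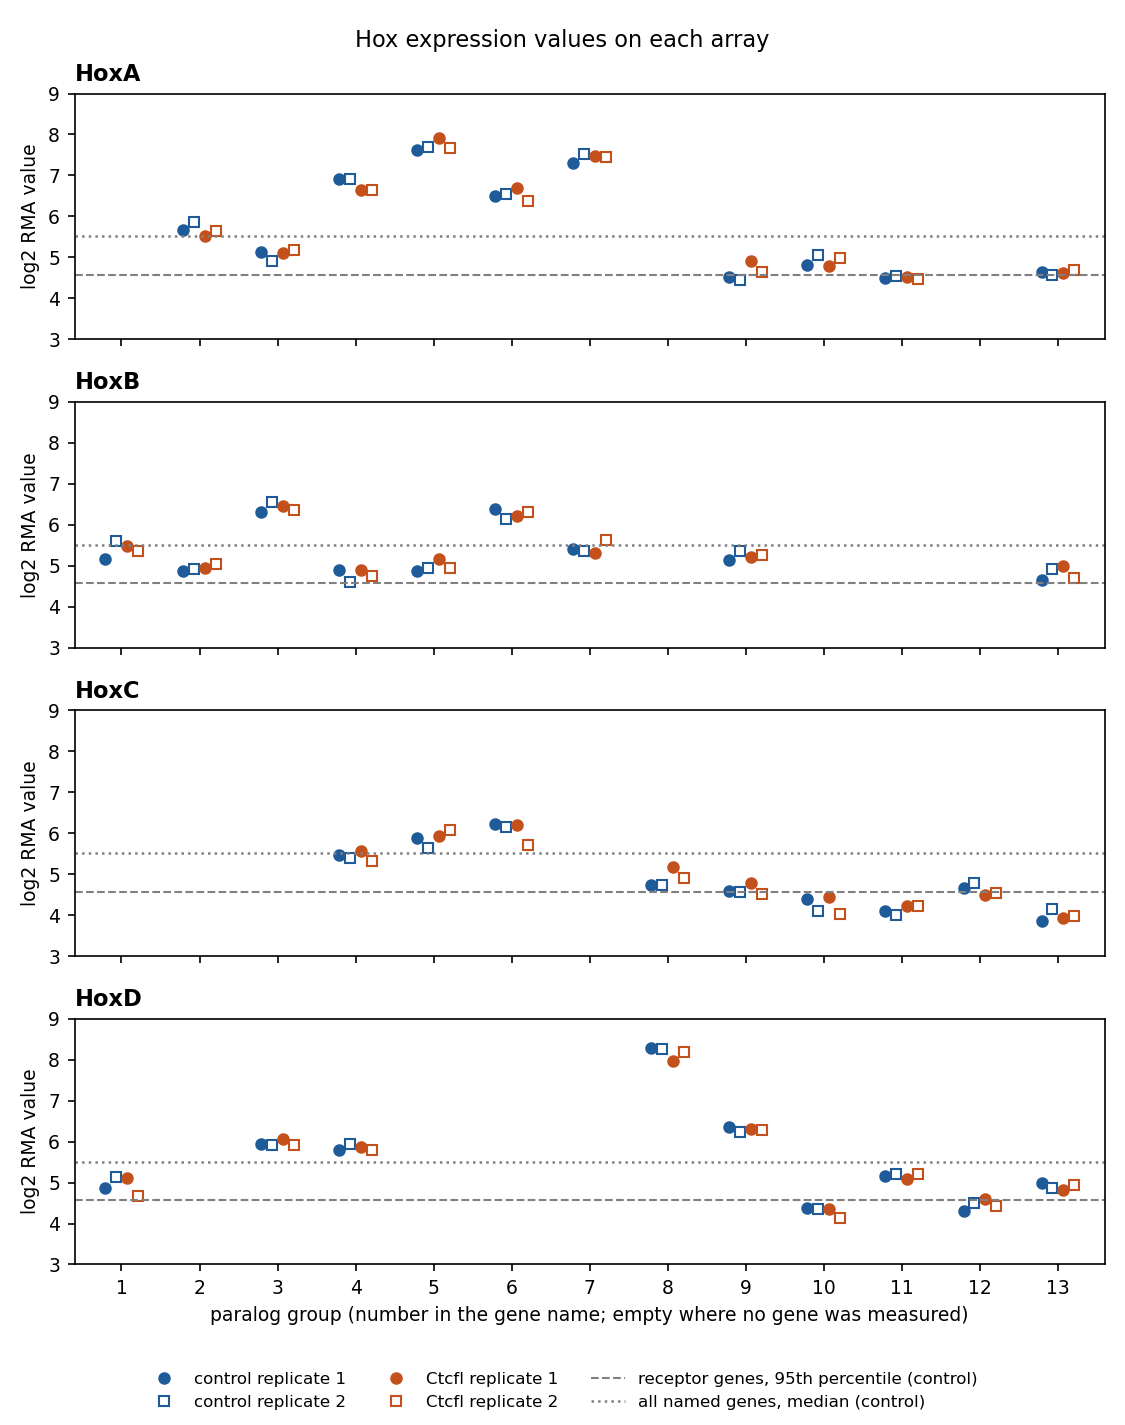
Log2 RMA value of each measured Hox gene on each of the 4 arrays, in 1 panel per cluster, along the paralog group. The dashed line is the 95th percentile of the receptor genes and the dotted line the median of all named genes, both for the control group. In HoxA the values of Hoxa4 to Hoxa7 stand above 6.3 and those of Hoxa9 to Hoxa13 below 5.1, and in HoxD the points of Hoxd8 lie at 7.97 to 8.28.

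Setting Ctcfl against control arrays addresses whether Hox expression differs after doxycycline withdrawal, with Ctcfl raised from a level that was not silent. No Hox gene passed. In the limma fit over all 19938 named genes 9 genes passed an adjusted p of 0.05 (0.0451%), 6 higher and 3 lower, and none of the 37 Hox genes was among them. With each array centred on its median 31 genes passed, 16 higher and 15 lower, again with no Hox gene. At an unadjusted p under 0.05 there were 3 Hox genes (8.11%), against 10.7% of all named genes. Of these, 2 were higher, where the background is 5.36%, and 1 was lower, where it is 5.32%. These shares are near the background.

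The median log2 change of the Hox genes was 0.01, beside 0.00 for all named genes. Changes ran from -0.265 to 0.30, with 20 members above 0 and 17 below. In 22 of 37 (59.5%) the change was at most 0.1 in size, against 52.4% of all named genes. Groups did not overlap for 10 Hox genes (27%), 5 higher and 5 lower, against 41.1% of all named genes, 20.6% in either direction. The change exceeded both differences between replicates in 5 Hox genes (13.5%), against 30.0% of all named genes. The median difference between replicates of a Hox gene was 0.12 in control and 0.14 in Ctcfl, larger than the median size of its change, 0.07. Over all named genes these medians were 0.10, 0.11 and 0.095.

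The 3 largest positive changes were those of Hoxc8, Hoxa9 and Hoxc5. Hoxc8 went from 4.74 ± 0.00 to 5.04 ± 0.18 (log2, SD, n = 2), a log2 change of 0.30 (SE 0.11, limma adjusted p = 0.437). Hoxa9 went from 4.49 ± 0.05 to 4.78 ± 0.19, a change of 0.29 (SE 0.11, limma adjusted p = 0.451). Hoxc5 went from 5.77 ± 0.18 to 6.01 ± 0.12, a change of 0.24 (SE 0.12, limma adjusted p = 0.522). None passed, and in Hoxc8 and Hoxa9 the 2 Ctcfl arrays differed from each other by nearly as much as from the controls. With 1 array left out in turn the changes ran from 0.17 to 0.43 for Hoxc8, 0.155 to 0.425 for Hoxa9 and 0.115 to 0.365 for Hoxc5.

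The 3 largest negative changes were those of Hoxa4, Hoxc6 and Hoxc12. Hoxa4 went from 6.92 ± 0.01 to 6.65 ± 0.00, a log2 change of -0.265 (0.832-fold, SE 0.08, limma adjusted p = 0.383). Its replicates lay within 0.01 of each other, and it had the smallest p of the 37. Hoxc6 went from 6.18 ± 0.06 to 5.95 ± 0.34, a change of -0.23 (SE 0.16, limma adjusted p = 0.638). Hoxc12 went from 4.72 ± 0.08 to 4.52 ± 0.05, a change of -0.205 (SE 0.09, limma adjusted p = 0.484). None of them passed. The change of Hoxc6 rested on 1 array, since it was 0.01 without Ctcfl replicate 2. Hoxd8, far above the receptor level, had -0.20 (SE 0.10, limma adjusted p = 0.529), and -0.305 to -0.095 with 1 array left out.

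The intervals bound what these arrays could have missed. For 36 of the 37 genes the 95% interval of the fit, not adjusted for the number of genes, lay within a 1.5-fold change in either direction, which is 0.58 on the log2 scale. That is 97.3%, against 93.7% of all named genes. The exception was Hoxc6, from -0.62 to 0.16. Hoxa4 had -0.46 to -0.07, Hoxc8 0.03 to 0.57 and Hoxa9 0.01 to 0.57. Among the members with values well above the receptor level, Hoxa5 had -0.13 to 0.39, Hoxa7 -0.20 to 0.31, Hoxd8 -0.45 to 0.05 and Hoxd9 -0.21 to 0.22. For a member near the receptor level a change on this scale can understate the change of the transcript, so a narrow interval there bounds the reading of the array. Ordinary t statistics, with 2 residual degrees of freedom, gave wider intervals, and 15 of 37 then lay within 1.5-fold.

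**Figure D3:**
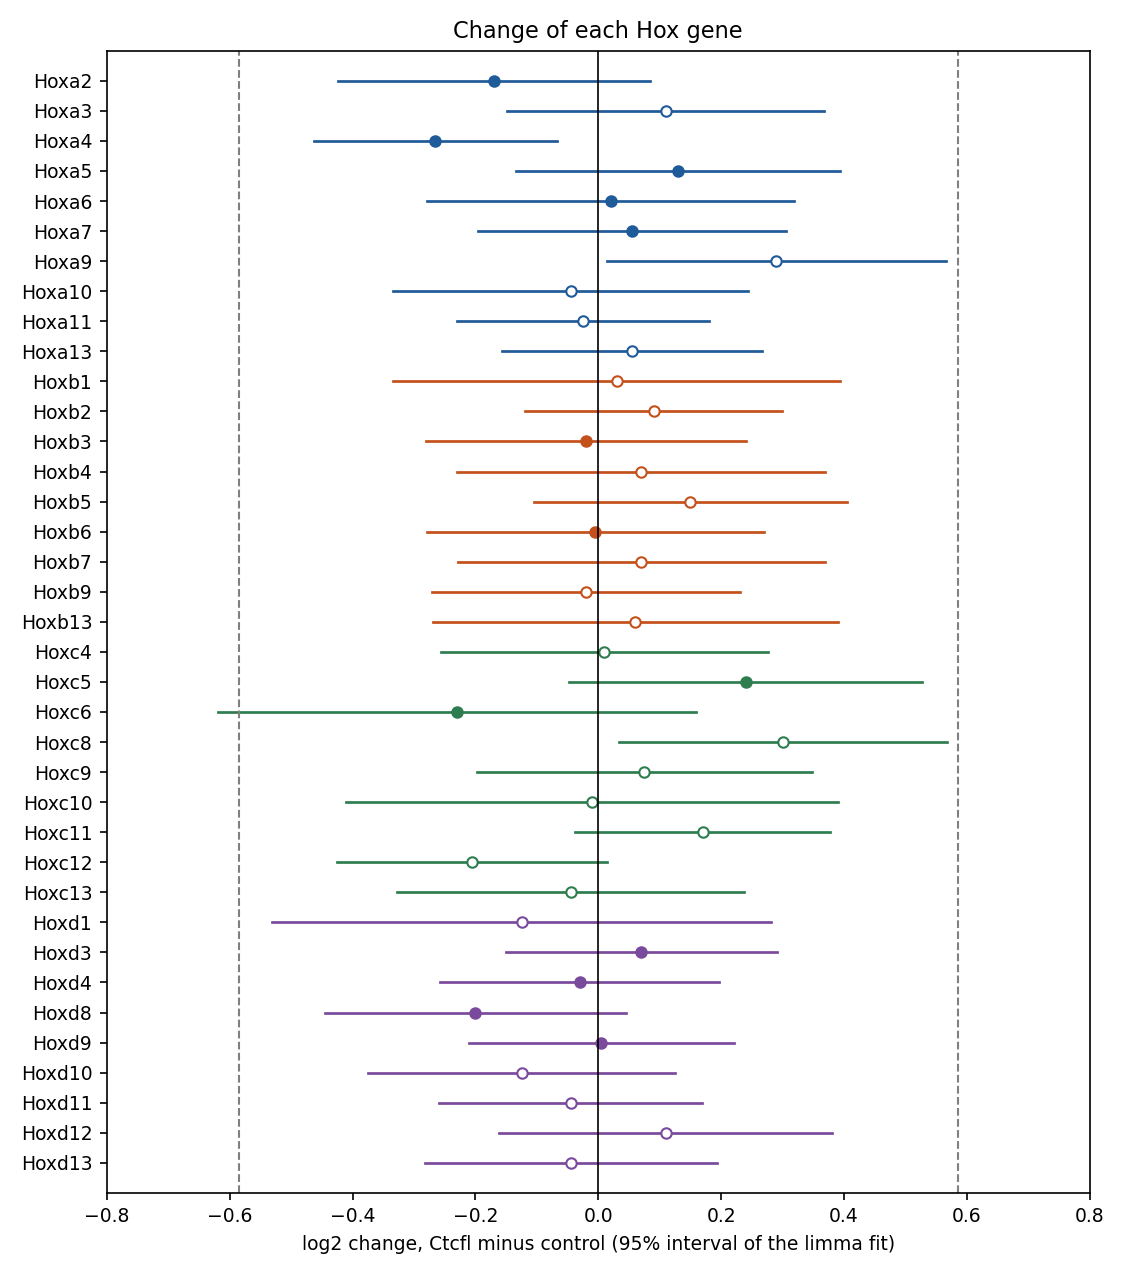
Log2 change (Ctcfl minus control) of each Hox gene with its 95% interval from limma, coloured by cluster. Filled points are members above the median of all named genes, and the dashed lines mark 1.5-fold. The points lie between -0.265 and 0.30, and only the interval of Hoxc6 crosses a dashed line.

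Within each cluster the changes lay on both sides of 0. Median log2 changes were 0.04 for the 10 members of HoxA, 0.06 for the 9 of HoxB, 0.01 for the 9 of HoxC and -0.045 for the 9 of HoxD. By paralog group the medians were 0.01 for groups 1 to 4, 0.06 for groups 5 to 8 and -0.015 for groups 9 to 13. These medians were not tested against each other. In HoxA they ran from -0.265 for Hoxa4 to 0.29 for Hoxa9, in HoxC from -0.23 for Hoxc6 to 0.30 for Hoxc8, and in HoxD from -0.20 for Hoxd8 to 0.11 for Hoxd12. In HoxB they ran from -0.02 for Hoxb3 and Hoxb9 to 0.15 for Hoxb5. Of the 21 members with a promoter window, Hoxa10 and Hoxd13 held the core of the CTCF motif in the spelling settled on above. Each had a change of -0.045 (limma adjusted p = 0.917 and 0.894). The promoters of the other members were not searched.

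Some annotated Hox genes share ground. In RefSeq the span of Hoxa3 contains Hoxa4, Hoxa5 and Hoxa6, the span of Hoxb3 contains Hoxb4, that of Hoxd3 contains Hoxd4, and Hoxd10 overlaps Hoxd11. Which exons the probe sets read was not checked, so a long transcript could add to the value of a gene within it. The change of Hoxa3 was 0.11, beside -0.265 for Hoxa4, 0.13 for Hoxa5 and 0.02 for Hoxa6. Hoxb3 had -0.02 beside 0.07 for Hoxb4, and Hoxd3 had 0.07 beside -0.03 for Hoxd4. Hoxd10 had -0.125 beside -0.045 for Hoxd11. Signs were alike in some of these pairs and opposite in others, and such an addition was not tested.

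Of 15 noncoding and antisense RNAs listed for the clusters 9 were measured, and none passed. Only Mir615, inside Hoxc5, and Hoxaas2, a long noncoding RNA of HoxA, lay above the receptor level. Mir615 read 5.78 and 5.90 in control and 6.24 and 5.99 in Ctcfl (log2 change 0.275, SE 0.11, limma adjusted p = 0.467). Its host Hoxc5 had 0.24, and whether both probe sets read one transcript was not tested. Hoxd3os1, which overlaps Hoxd3, read 4.61 and 4.50 in control and 4.80 on both Ctcfl arrays (0.245, SE 0.09, limma adjusted p = 0.431). The probe sets of the miR-10 and miR-196 genes, whose seeds are shown above, read 2.70 to 3.10 for Mir10a and Mir10b and 3.38 to 4.57 for the 3 Mir196 genes. These probe sets address the transcript of the miRNA gene, and the mature miRNA was not measured. Evx1 and Evx2, homeobox genes at the 5′ ends of HoxA and HoxD, read 5.03 to 5.26 and 6.05 to 6.21 and had changes of -0.005 and 0.035.

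The nearest measured genes on either side of the clusters did not pass either. Skap2, 149868 bases from HoxA, had a log2 change of 0.15, and Hottip, the noncoding RNA 1895 bases from its other end, had 0.25 at values of 3.61 to 4.0. Beside HoxB, Ttll6 had 0.03 and Gm11529 0.07. Calcoco1 had 0.16 and Smug1 -0.095 beside HoxC. Beside HoxD, Evx2 had 0.035 and Mtx2, a mitochondrial import gene, 0.17. The limma adjusted p-values of these 8 genes ran from 0.471 to 0.946.

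Genes that act with or on Hox genes were also measured, from lists chosen with earlier results of these data known. Apart from Ctcfl, none of their 110 measured entries passed over all genes, and 12 (10.9%) had an unadjusted p under 0.05, beside 10.7% of all named genes. TALE homeodomain proteins bind DNA together with Hox proteins, and 9 of 10 measured lay above the receptor level. Meis1 read 6.87 and 6.78 in control and 7.20 and 7.13 in Ctcfl (log2 change 0.34, SE 0.09, limma adjusted p = 0.339). Pknox2 had 0.235, at values of 4.27 to 4.58. The list's median was -0.04, with Pbx3 at -0.16 and Meis2 at -0.11.

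Polycomb repressors, which keep Hox genes silent, were all 20 above the receptor level, with a median change of 0.04 and no call. Cbx8, a reader of the Polycomb mark, read 6.87 and 6.86 in control and 6.68 and 6.57 in Ctcfl (log2 change -0.24, SE 0.09, limma adjusted p = 0.436). Cbx7 had 0.17, while the methyltransferase Ezh2 and its partners Suz12 and Eed had -0.04, 0.05 and 0.10. The 13 measured Trithorax genes and H3K27 demethylases had a median of 0.01 and no call, with the scaffold Men1 at 0.205, the demethylase Kdm6b at -0.185 and the methyltransferase Kmt2a at 0.01.

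In the CTCF and cohesin list only Ctcfl passed, with a log2 change of 2.62 (SE 0.08, limma adjusted p = 5.38e-04). The other 15 genes had a median of 0.00. Ctcf had -0.16, the cohesin acetyltransferase Esco1 0.31, and the cohesin subunits Rad21, Smc1a and Smc3 -0.035, -0.02 and -0.08.

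Retinoic acid, made from vitamin A, switches on 3′ Hox genes in embryos. Its 15 measured pathway genes had a median of 0.085 and no call, and 4 of 15 had an unadjusted p under 0.05, beside 10.7% of all named genes. The synthesis enzyme Aldh1a1 read 4.74 and 5.0 in control and 5.56 and 5.57 in Ctcfl (log2 change 0.695, SE 0.11, limma adjusted p = 0.169). The carrier Crabp2 read 4.51 and 4.62, then 5.08 and 4.93 (0.44, SE 0.10, limma adjusted p = 0.277), and its control mean was not above the receptor level, by a small margin. Crabp1 had -0.38 and the receptor Rxra -0.235. In the whole list the groups did not overlap for 4 genes higher and 4 lower of 15, beside 41.1% of all named genes. The measured Hox genes of group 1, Hoxb1 and Hoxd1, had overlapping groups and changes of 0.03 and -0.125.

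Cdx genes activate Hox genes in the embryo and ParaHox genes are their relatives. Of 6 measured, Cdx4 had the largest difference, from 3.75 and 3.82 to 3.31 and 3.35 (log2 change -0.455, SE 0.08, limma adjusted p = 0.224), at values typical of the receptor genes, and Cdx1 had -0.12. Among 20 fibroblast position and limb patterning factors, which carry positional identity beside Hox genes, the median was 0.00 and none passed. Twist2, a mesenchymal regulator, read 9.87 and 9.86 in control and 9.43 and 9.42 in Ctcfl (-0.44, SE 0.08, limma adjusted p = 0.223). Prrx2 had -0.26 and Prrx1 -0.165. Tbx15, Tbx18 and Tbx3 were well above the receptor level, and their changes were 0.03, 0.135 and 0.08.

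**Figure D4:**
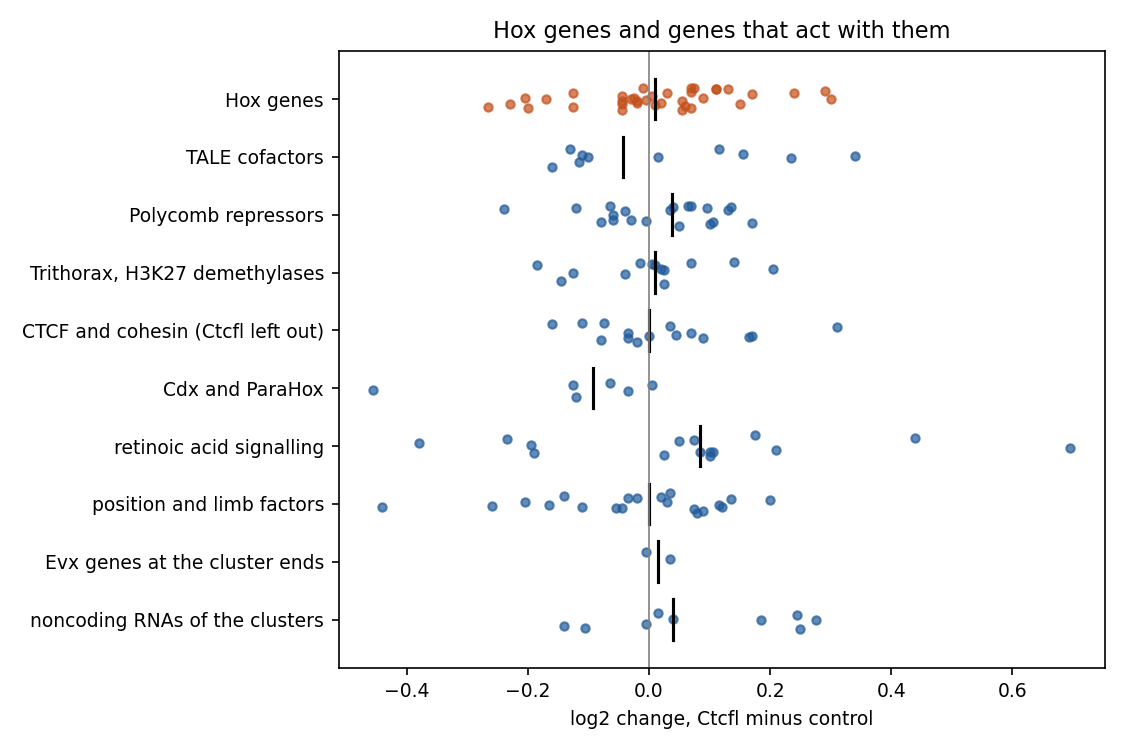
Log2 change (Ctcfl minus control) of each measured gene, as dots, with the median of each list as a black bar and Ctcfl itself left out. Dots are moved up or down at random for clarity. The Hox genes span -0.265 to 0.30, and wider spans are seen in the retinoic acid list, from -0.38 to 0.695, and in the position and limb factors, from -0.44 to 0.20.

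Markers of other cell types were summed on the linear scale of each array, and sums of different lists are not compared. For 5 endothelial markers the sum was 94.5 to 99.2 over all 4 arrays, and 1 of the 5, Tie1, was above the receptor level. For 6 haematopoietic markers the sum was 210 to 216 in control and 208 to 212 in Ctcfl, with 3 above the level. For the 10 fibroblast markers it was 17782 and 17577 in control and 17060 and 16397 in Ctcfl. In that list Pdgfrb had a log2 change of -0.56, Col3a1 -0.38 and Pdgfra -0.29, and none passed. Over the list 8 of 10 changes were negative, 7 of 10 had no overlap and were lower (beside 20.6% of all named genes), and 3 of 10 had an unadjusted p under 0.05 (beside 10.7%). Sums were 235 and 215 in control and 250 and 248 in Ctcfl for 7 epithelial markers, of which 4 were above the level. Krt8 had a log2 change of 0.575, and over the list 3 changes were positive and 4 negative, with a median of -0.005. The sums were 188 and 193, then 180 and 185, for 6 neural and glial markers (5 above). They were 212 and 231, then 237 and 227, for 5 skeletal muscle markers (4 above), and 107 and 106, then 115 and 114, for 6 germ and pluripotent cell markers (2 above). In this last list Pou5f1, not above the receptor level, had a log2 change of 0.335 and Zbtb16 0.21. These 2 of 6 had an unadjusted p under 0.05 (beside 10.7%) and were higher without overlap (beside 20.6%), and none passed. Over the list 3 changes were positive and 3 negative. The part of such cell types in the Hox values was not tested.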

How the data were processed

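Per the labels, the authors ran RMA in Expression Console and deposited its log2 expression values, of which version and settings are not given in the sources used here. There were 35512 probe sets, 1 without a value. By the platform annotation 21789 probe sets carried a single symbol and 1621 more than one, and 12101 were unnamed here. Identifiers of 21698 matched the RefSeq table of GRCm38.p6, which changed 0 symbols and gave the coordinates. Each Hox gene had 1 probe set.

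Ctcfl and control arrays (2 each) entered a limma fit (version 3.58.1, R 4.3.3, lmFit and eBayes, two-sided, prior 4.21 degrees of freedom) with Benjamini-Hochberg adjustment over all 19938 genes, a threshold of 0.05 and no filter. The test was also tried on simulated data, with variances drawn from the fit to these arrays. Its outcome is not given here. The gene members and lists were chosen with earlier results of these data known. Values on every array were set for the members above the receptor level and the 3 largest changes in each direction. Also named, some by their change alone, were list genes past the threshold or the 2 with the smallest p, and the nearest gene on each side of a cluster; other genes named were chosen after their values were seen. Alternatives were quantile normalisation, median centring, averaging a gene's probe sets, robust variances that follow intensity (statmod 1.5.0), ordinary t statistics, the brighter genes alone, a replicate block and each array left out. Figures used matplotlib 3.10.9 in Python 3.11.15.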

Additional observations from a re-analysis of the deposited data

How the results depend on the processing

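Over all named genes, 9 genes passed the adjusted threshold, and the count was 13 (8 higher, 5 lower) after quantile normalisation, 31 after median centring, 20 with the dimmest genes left out, 479 (220 higher, 259 lower) with an intensity trend and robust variances, 0 with ordinary t statistics (1940 unadjusted), and 0 to 0 with each array left out in turn (1329 to 1663 unadjusted). No Hox gene passed in any of these. Where no gene passed at all, Ctcfl did not pass either, so the absence of Hox genes there says nothing about them. The smallest limma adjusted p of a Hox gene was 0.193, with the trend. The labels number replicates without saying that the numbers pair samples, and deviations of samples with one number correlated at -0.102. With a replicate block 0 genes passed (1468 unadjusted), and with the crossed pairing, added after seeing the data, 0 (2105 unadjusted). The median Hox change of 0.01 was -0.0025 after quantile normalisation, -0.01 after centring and -0.005 to 0.045 with an array left out.

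The 29 members above the receptor level were 17 with the 99th percentile and 13 with the median of all genes. The 3 Hox genes with an unadjusted p under 0.05 were 1 with ordinary t statistics, and 0 to 4 with an array left out (0 without control replicate 2, 1 without control replicate 1). The 36 intervals within 1.5-fold were 15 with ordinary t statistics and 24 to 27 with an array left out.

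With an array left out, 35 of 148 values of single Hox genes turned sign, in 22 genes. Of the other alternatives, 5 values turned sign, in 3 genes, all with quantile normalisation or median centring. A replicate block, robust variances, ordinary t statistics and averaging of probe sets cannot move the change of a Hox gene here, so they do not check its sign. Quantile normalisation gave -0.0025 for Hoxb1, -0.0088 for Hoxc4 and -0.0006 for Hoxd9, and centring -0.01 for Hoxc4 and -0.015 for Hoxd9. With an array left out the changes ran from -0.005 to 0.225 for Hoxa3, -0.14 to 0.18 for Hoxa6, -0.055 to 0.165 for Hoxa7, -0.165 to 0.075 for Hoxa10, -0.055 to 0.005 for Hoxa11, -0.185 to 0.245 for Hoxb1, -0.135 to 0.095 for Hoxb3, -0.075 to 0.215 for Hoxb4, -0.135 to 0.125 for Hoxb6, -0.09 to 0.23 for Hoxb7, -0.13 to 0.09 for Hoxb9, -0.085 to 0.205 for Hoxb13, -0.115 to 0.135 for Hoxc4, -0.47 to 0.01 for Hoxc6, -0.06 to 0.21 for Hoxc9, -0.22 to 0.20 for Hoxc10, -0.19 to 0.10 for Hoxc13, -0.345 to 0.095 for Hoxd1, -0.10 to 0.04 for Hoxd4, -0.055 to 0.065 for Hoxd9, -0.10 to 0.01 for Hoxd11 and -0.115 to 0.025 for Hoxd13.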
